A study of Mus musculus with 6 samples.

Results

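The 10 genes Mmp2, Mmp3, Mmp14, Timp1, Timp2, Timp3, Timp4, Lox, Loxl1 and Loxl2 encode matrix proteases, their tissue inhibitors and collagen cross-linking enzymes. They were taken by name from a table of 54532 genes measured by RNA sequencing of mouse hearts, and all 10 were found there. The 3 control hearts (Ctrl) were Mrps5 fl/fl, carrying loxP-flanked alleles of Mrps5, a gene for a protein of the mitochondrial ribosome. The 3 conditional knockout hearts (cKO) were Mrps5 fl/fl; MCM, which adds MerCreMer, a tamoxifen-dependent Cre recombinase driven by the αMHC promoter of cardiomyocytes. Tamoxifen was injected at 45 mg per kg per day for 5 days from 8 weeks of age. The labels and the study's results place the hearts 12 weeks after injection, whereas its methods give the mice an age of 12 weeks. Ctrl mice carried no Cre, so loss of Mrps5 and presence of the activated recombinase cannot be told apart here. The tissue is labelled heart, and the methods name ventricle.

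Matrix metalloproteinases (MMPs) are zinc enzymes that cut collagens, proteoglycans and other matrix proteins. They are made as inactive precursors, and tissue inhibitors of metalloproteinases (TIMPs) block them by occupying the active site. Lysyl oxidases act on the opposite side of matrix turnover, oxidising lysines of collagen and elastin so that fibres become cross-linked and harder to degrade. In the heart this system is known mainly from fibroblasts, macrophages and vessels, while Timp4 is the inhibitor known for its heart-enriched expression.

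The deleted gene was examined first. Mrps5 fell to 20.4% of the Ctrl mean, from 5.99 ± 0.690 to 1.22 ± 0.0947 FPKM (fragments per kilobase of gene and per unit of library size; SD, n = 3 each). Libraries held 15989322 to 24875499 reads assigned to genes. In cKO replicate 2 the 4 Y-linked genes examined were listed at 0 and Xist at 10.7 FPKM, against Y-linked sums of 30.4 to 35.2 FPKM and Xist of at most 0.127 FPKM elsewhere. These are readings of female tissue, whereas the study states that its mice were all male. The origin of this heart was not tested. Summed atrial markers spanned 25.2 to 992 FPKM in Ctrl and 106 to 737 FPKM in cKO hearts. Below, values of single hearts follow the order of replicates 1, 2 and 3.

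Among the 10 genes, Timp1 and Loxl1 rose in cKO hearts and Timp2, Timp3 and Timp4 fell, while Mmp2, Mmp3, Mmp14, Lox and Loxl2 did not pass the threshold. The fit covered 12944 genes averaging 0.5 FPKM or more (limma on log2(FPKM + 1), adjusted p under 0.05). It called 2 of the 10 higher, where 16.3% of all genes were higher, and 3 of the 10 lower, where 17.0% of all genes were lower. With libraries rescaled to their total without mtDNA-encoded genes, the calls over all genes moved from 2110 higher and 2205 lower to 2647 higher and 1623 lower, and the 5 called members kept their calls. The library sizes implied by the FPKM were 0.913 to 0.980 times the reads assigned to genes in Ctrl hearts and 1.059 to 1.062 times in cKO hearts, a gap that follows the groups. With FPKM rescaled to the assigned reads, the median over all genes tested moved to 0.093 on the log2 scale, 3270 genes were higher and 1383 lower, and of the 5 called members Timp2 lost its call (log2 fold change -0.42, limma adjusted p 0.0527). Every cKO heart lay above every Ctrl heart for 2 of the 10, against 24.8% of all genes, and below for 3 of the 10, against 26.4% of all genes. The median log2 fold change was 0.11 over the 10 genes and -0.02 over all genes tested. Without cKO replicate 2, the heart that differed in X- and Y-linked genes, 2 of the 10 were higher and 3 lower. All 10 exceeded 0.5 FPKM in each heart, so none passed the filter through one group alone.

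**Figure D1:**
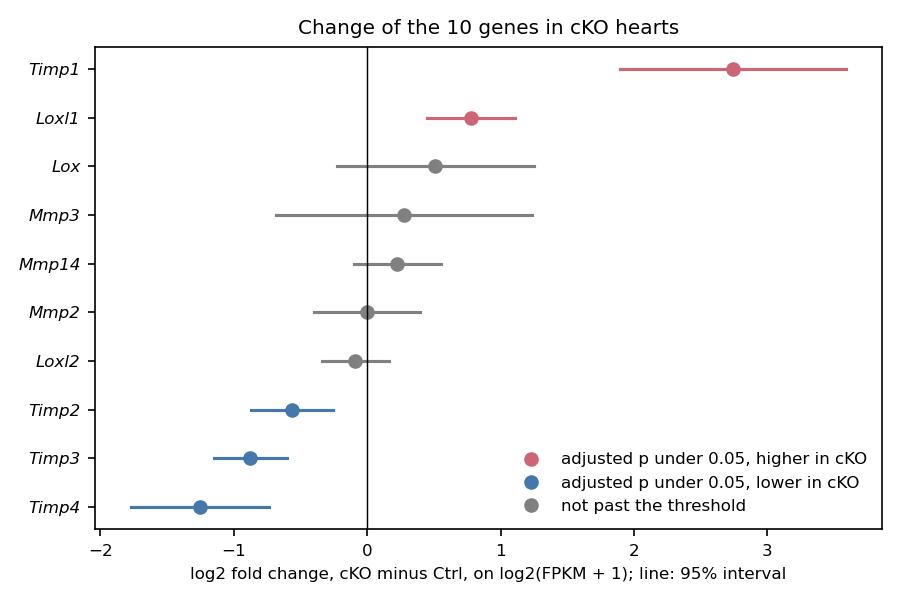
Log2 fold change of the 10 genes, cKO minus Ctrl, on log2(FPKM + 1), with 95% intervals from the limma fit (3 hearts per group). Timp1 lies furthest to the right at 2.74 and Timp4 furthest to the left at -1.25, and the intervals of Mmp2, Mmp3, Mmp14, Lox and Loxl2 span 0.

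Timp1 encodes a secreted inhibitor that is inducible in many cell types. It read 10.1, 4.82 and 7.91 FPKM in Ctrl hearts, from 89 to 171 reads, and 92.7, 40.7 and 43.2 FPKM in cKO hearts, from 843 to 1393 reads. The lowest cKO heart was well above the highest Ctrl heart, and cKO replicate 1 stood above the other cKO hearts. On average Timp1 rose from 7.61 ± 2.65 to 58.8 ± 29.3 FPKM (SD, n = 3 each), a ratio of 7.73. Its log2 fold change was 2.74 (SE 0.36, 95% interval 1.89 to 3.59, limma adjusted p 0.00272), and 0.155% of the genes tested had a larger absolute change. The gene is X-linked, and cKO replicate 2, the heart with Xist, had nearly the level of cKO replicate 3. With 1 such heart, a part of sex in the level of Timp1 was not tested.

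Timp4 moved the other way. Ctrl hearts read 17.2, 18.2 and 18.3 FPKM and were close together, whereas cKO hearts read 8.92, 4.43 and 8.21 FPKM. All cKO hearts were below all Ctrl hearts, and cKO replicate 2 was lowest. Its mean fell from 17.9 ± 0.595 to 7.19 ± 2.42 FPKM (SD, n = 3 each), or 40.2% of Ctrl, with a log2 fold change of -1.25 (SE 0.22, limma adjusted p 0.00644).

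Timp3 encodes the inhibitor that is held in the matrix and also restrains ADAM proteases. Readings of 25.9, 21.7 and 26.4 FPKM in Ctrl hearts stood against 12.6, 11.5 and 14.8 FPKM in cKO hearts. The groups were well apart, and the mean fell from 24.7 ± 2.60 to 13.0 ± 1.64 FPKM (SD, n = 3 each), or 52.6% of Ctrl (log2 fold change -0.88, SE 0.12, limma adjusted p 0.00279).

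Timp2 both inhibits MMPs and, together with MMP14, presents pro-MMP2 for activation. It read 38.3, 32.3 and 35.0 FPKM in Ctrl hearts and 22.0, 20.6 and 28.2 FPKM in cKO hearts, again without overlap. Its mean fell from 35.2 ± 3.05 to 23.6 ± 4.04 FPKM (SD, n = 3 each), or 67.2% of Ctrl (log2 fold change -0.56, SE 0.13, limma adjusted p 0.0164). The call was lost without Ctrl replicate 1, Ctrl replicate 3 or cKO replicate 1, with limma adjusted p of 0.0561, 0.0517 and 0.0509 and log2 fold changes of -0.50, -0.57 and -0.52.

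**Figure D2:**
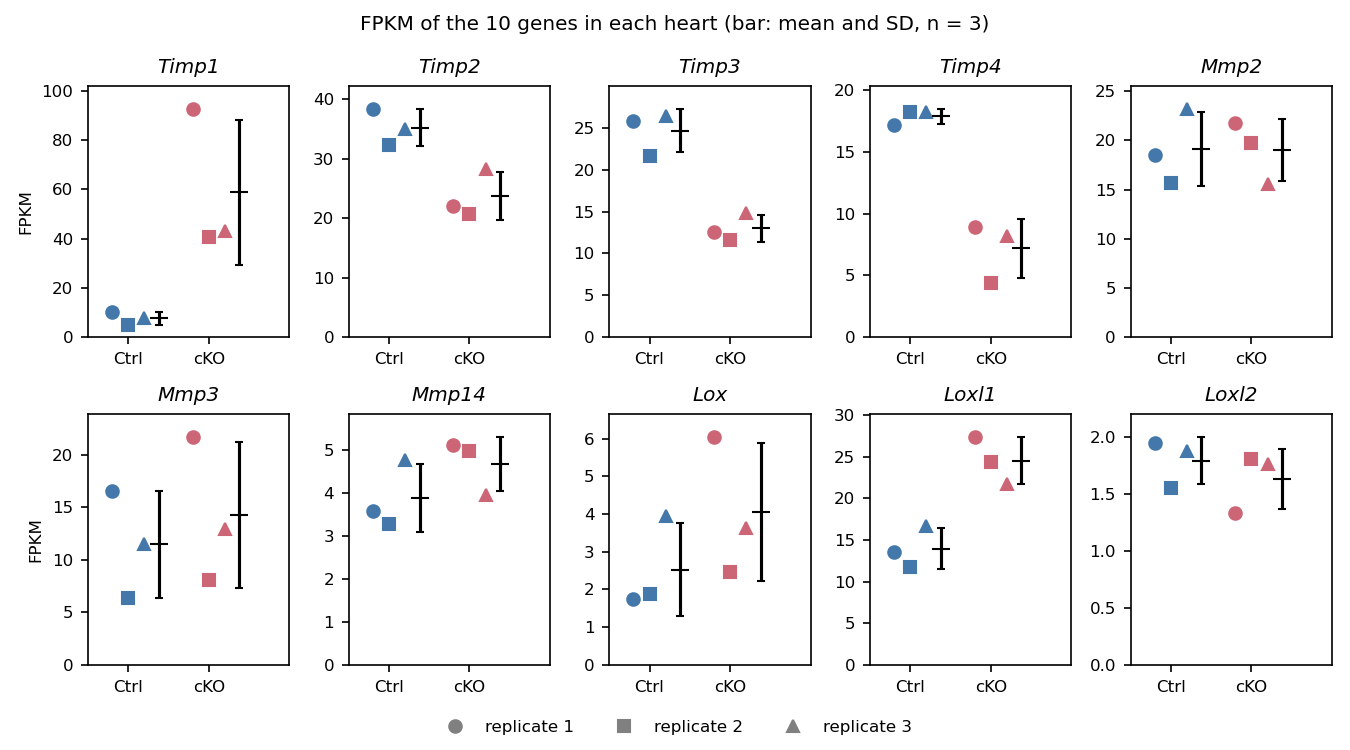
FPKM of each of the 10 genes in each heart (vertical axes start at 0), with Ctrl in blue, cKO in red, a symbol for each replicate number, and a black bar for the mean and SD of 3 hearts. The groups are separated for the 4 Timp genes and for Loxl1, and they overlap for the 3 Mmp genes, Lox and Loxl2.

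Because the 4 TIMP mRNAs moved in opposite directions, their sum and makeup were computed per heart. The sum came to 91.5, 77.0 and 87.6 FPKM in Ctrl hearts and 136, 77.3 and 94.4 FPKM in cKO hearts, so the groups overlapped (two-sided exact permutation p 0.4). In reads not divided by length, to which the longer genes add more, the sum was instead lower in every cKO heart, at 378 to 461 reads per 1000000 assigned reads in Ctrl and 251 to 342 in cKO hearts. Within the summed FPKM, Timp1 made up 11.0, 6.26 and 9.03 percent in Ctrl hearts and 68.0, 52.6 and 45.7 percent in cKO hearts. The mean share went from 8.78 ± 2.40% to 55.5 ± 11.4% (SD, n = 3 each), a difference of 46.7 percentage points (exact permutation p 0.1, the smallest that 3 against 3 hearts allow). FPKM is per length and Timp1 is the shortest of the 4 genes, so in reads not divided by length the difference was 16.1 percentage points. The length used for Timp3 was 8144 bases, against 4722 in its longest transcript, so sum and shares depend on the length chosen. Timp2, Timp3 and Timp4 together summed to 81.4, 72.1 and 79.7 FPKM in Ctrl hearts and 43.6, 36.6 and 51.2 FPKM in cKO hearts, a ratio of means of 0.563.

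**Figure D3:**
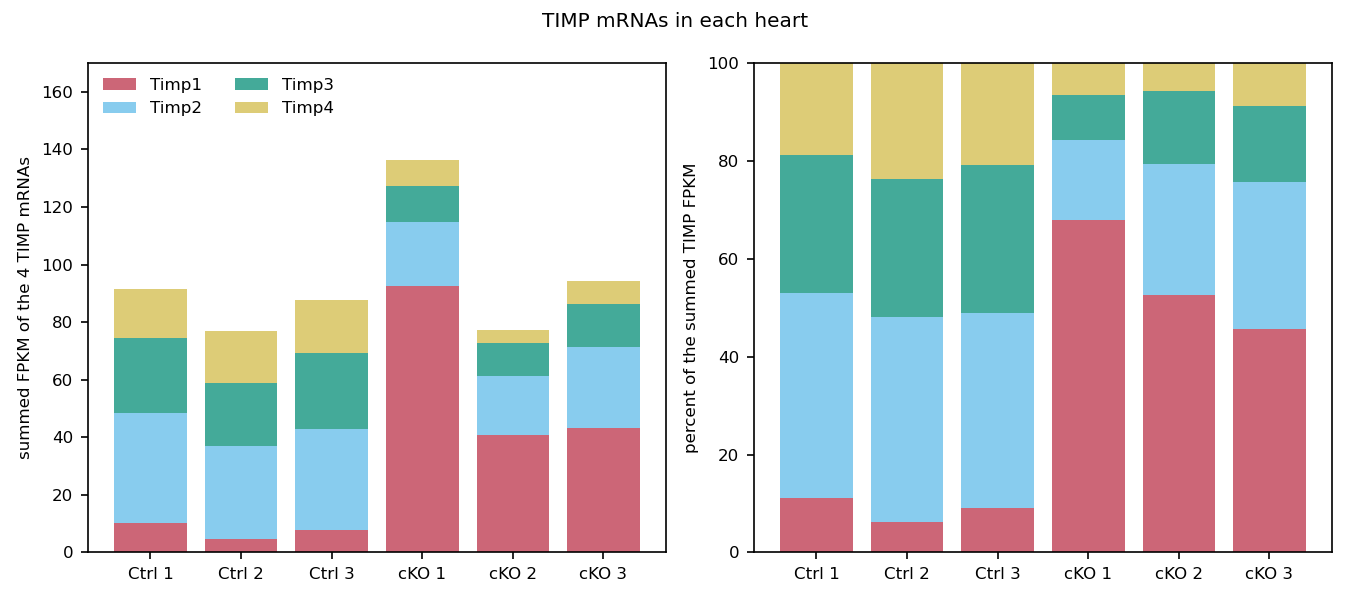
The 4 TIMP mRNAs in each heart as stacked FPKM (left) and as percent of their sum (right). Timp1 is the smallest part in every Ctrl heart, at 6.26 to 11.0 percent, and the largest in every cKO heart, at 45.7 to 68.0 percent.

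Of the 4 TIMP genes, 3 share a genomic setting that the choice of genes did not use. In GENCODE M21 (GRCm38), Timp1 (chrX:20870166-20874735, plus strand, 6 exons in the longest transcript), Timp3 (chr10:86300372-86349506, plus strand, 5 exons) and Timp4 (chr6:115241892-115252205, minus strand, 5 exons) each lie inside a synapsin gene on the opposite strand, Syn1, Syn3 and Syn2. Timp2 (chr11:118301069-118355740, minus strand, 5 exons) overlaps Cep295nl without shared exon bases. Timp1 and Syn1 share 0 exon bases, Timp4 and Syn2 share 90 (1.53% of those of Timp4), and Timp3 and Syn3 share 1733 (21.3%). With no strand setting stated, it is not known to which gene reads from such stretches were assigned, or whether they were counted. Syn1 spanned 0.0723 to 0.130 FPKM and Syn3 0.0129 to 0.0641 FPKM over the 6 hearts. Syn2 also fell, reading 1.22, 1.91 and 1.96 FPKM in Ctrl hearts and 0.748, 0.426 and 0.605 FPKM in cKO hearts (log2 fold change -0.75, limma adjusted p 0.00796).

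The 250 bases before the start of Timp1 and Timp4 are shown because these are the members that rose and fell most. Sequences are from RefSeq (GRCm38.p6), which gave a window for 6 of the 10 genes, and run in the direction of the gene. Capitals mark matches, on either strand, to any of 5 motifs: the AP-1 site TGANTCA, the GC box GGGCGG, the ETS core GGAAGT, the TATA box TATAAA and the ATF4 and C/EBP composite element TGATGNAA. The windows are chrX:20869916-20870165 (plus strand) for Timp1 and chr6:115252206-115252455 (minus strand) for Timp4, and both end at the start given by GENCODE M21.
Timp1: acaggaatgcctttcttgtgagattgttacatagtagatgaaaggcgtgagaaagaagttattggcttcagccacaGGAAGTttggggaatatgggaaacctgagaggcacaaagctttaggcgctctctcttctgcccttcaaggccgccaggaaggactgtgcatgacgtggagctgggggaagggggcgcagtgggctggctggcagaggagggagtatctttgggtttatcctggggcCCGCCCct
Timp4: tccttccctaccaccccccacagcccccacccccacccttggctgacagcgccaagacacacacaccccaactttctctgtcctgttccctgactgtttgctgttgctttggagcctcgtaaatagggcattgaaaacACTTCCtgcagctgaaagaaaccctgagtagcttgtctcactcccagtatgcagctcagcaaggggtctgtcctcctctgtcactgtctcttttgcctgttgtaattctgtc

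The window of Timp1 held 1 GC box, beginning 8 bases before the start, and 1 ETS core at 174 bases. That of Timp4 held 1 ETS core at 112 bases and no GC box. The RefSeq windows of Timp2 and Timp3, which reach into the genes as GENCODE M21 draws them and are not printed, held 1 GC box each. GC content was 54.4%, 68%, 65.6% and 53.6% for Timp1, Timp2, Timp3 and Timp4. Over 32851 windows of this length, 32.7% held the GC box, 19.7% the ETS core, 6.75% the AP-1 site, 12.4% the TATA box and 3.45% the composite element. The letters of the last 3 were in none of the windows of the 4 TIMP genes. The window of Mmp3 held 1 AP-1 site, 1 ETS core and 1 TATA box, and that of Mmp14 held 2 GC boxes.

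The MMP mRNAs overlapped between the groups. Mmp2, gelatinase A, read 18.5, 15.7 and 23.2 FPKM in Ctrl hearts and 21.7, 19.8 and 15.6 FPKM in cKO hearts. The ranges nearly coincided, at means of 19.1 ± 3.80 and 19.0 ± 3.15 FPKM (SD, n = 3 each). The log2 fold change was -0.0028, with a 95% interval from -0.40 to 0.40 (limma adjusted p 0.993), and its sign turned with scaling and with the hearts included.

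Mmp14, the membrane-type MMP that activates pro-MMP2 at the cell surface, read 3.58, 3.28 and 4.77 FPKM in Ctrl hearts and 5.10, 4.98 and 3.96 FPKM in cKO hearts. Ctrl replicate 3 and cKO replicate 3 made the groups overlap, and the log2 fold change was 0.23 (95% interval -0.10 to 0.55, limma adjusted p 0.246). Mmp3, or stromelysin-1, was uneven within both groups, with replicate 1 highest and replicate 2 lowest in each. Its Ctrl hearts read 16.6, 6.38 and 11.5 FPKM and its cKO hearts 21.7, 8.11 and 13.0 FPKM (log2 fold change 0.28, 95% interval -0.68 to 1.24, limma adjusted p 0.628), and the sign turned without Ctrl replicate 2 or cKO replicate 1. Summed, the 3 MMP mRNAs spanned 25.3 to 39.5 FPKM in Ctrl and 32.5 to 48.6 FPKM in cKO hearts.

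The balance of inhibitor to protease mRNA was taken as the summed FPKM of the 4 TIMPs over that of the 3 MMPs. It came to 2.37, 3.04 and 2.22 in Ctrl hearts and 2.80, 2.35 and 2.90 in cKO hearts. The groups overlapped, with means of 2.54 ± 0.436 and 2.69 ± 0.294 (SD, n = 3 each, exact permutation p 0.8). Leaving Timp1 out of the numerator gave 2.11, 2.85 and 2.02 in Ctrl hearts and 0.897, 1.11 and 1.58 in cKO hearts, with no overlap (exact permutation p 0.1, the smallest possible). The difference of the full ratio, 0.145, became -1.72 in reads not divided by length and -0.0163 without Ctrl replicate 3. These are ratios of mRNA that depend on the gene lengths used, and enzyme activity was not measured in these files.

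Of the lysyl oxidases, Loxl1, known for its part in the upkeep of elastic fibres, rose. Ctrl hearts read 13.5, 11.7 and 16.7 FPKM and cKO hearts 27.4, 24.4 and 21.8 FPKM, so the lowest cKO heart was above the highest Ctrl heart. The mean went from 14.0 ± 2.51 to 24.5 ± 2.82 FPKM (SD, n = 3 each), a ratio of 1.76 (log2 fold change 0.78, SE 0.14, limma adjusted p 0.00720).

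Lox, the founding member of the family, read 1.76, 1.89 and 3.94 FPKM in Ctrl hearts and 6.06, 2.48 and 3.63 FPKM in cKO hearts. Ctrl replicate 3 lay within the cKO range, and the log2 fold change of 0.51 did not pass (95% interval -0.23 to 1.25, limma adjusted p 0.248). Loxl2 read 1.95, 1.56 and 1.88 FPKM in Ctrl hearts and 1.33, 1.81 and 1.77 FPKM in cKO hearts (log2 fold change -0.088, 95% interval -0.34 to 0.16, limma adjusted p 0.553). Of the 2 other genes of the family, Loxl3 was called higher (log2 fold change 0.46, limma adjusted p 0.0349). Loxl4 had a Ctrl mean under 0.5 FPKM and passed the filter through its cKO values alone, which favours a call. It read 0.373, 0.194 and 0.392 FPKM in Ctrl hearts and 1.51, 1.12 and 0.972 FPKM in cKO hearts (log2 fold change 0.73, limma adjusted p 0.00533).

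The cross-linking enzymes were set beside fibrillar collagen. The summed FPKM of Lox, Loxl1 and Loxl2 in cKO hearts was 1.65 times the Ctrl mean. That of Col1a1, Col1a2 and Col3a1 was 2.10 times. Neither sum overlapped between the groups, and 24.8% of all genes singly had every cKO heart above every Ctrl heart. Loxl1 made up 74.1 to 78.5 percent of the enzyme sum in Ctrl and 78.8 to 85.1 percent in cKO hearts, while Lox and Loxl2 each overlapped. As a percent of these collagens, the 3 enzymes stood at 50.6, 51.2 and 58.6 in Ctrl hearts and 46.8, 32.3 and 52.8 in cKO hearts, with overlap (exact permutation p 0.3).

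The order of the 10 levels, in FPKM, differed between the groups. In Ctrl hearts it was Timp2, Timp3, Mmp2, Timp4, Loxl1, Mmp3, Timp1, Mmp14, Lox and Loxl2, and the ranges of neighbours were separate between Timp2 and Timp3, Timp4 and Loxl1, and Timp1 and Mmp14. In cKO hearts it was Timp1, Loxl1, Timp2, Mmp2, Mmp3, Timp3, Timp4, Mmp14, Lox and Loxl2, with separate ranges between Timp1 and Loxl1, Timp3 and Timp4, and Lox and Loxl2. The other neighbours overlapped. Timp1 thus went from place 7 to place 1 and Timp3 from place 2 to place 6. The lengths behind these FPKM are the exon bases of all transcripts, 8144 for Timp3, 5960 for Mmp14 and 3896 for Timp2. Their longest transcripts hold 4722, 3238 and 3709 bases, whereas Timp1 has 888 and 883. The order between genes therefore depends on the length used, also for Timp2 and Timp3.

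Other genes of matrix turnover were read from 10 lists of 117 genes, of which 79 were tested. Of these, 26 were higher (32.9%) and 10 lower (12.7%), beside 16.3% and 17.0% of all genes, with a median log2 fold change of 0.16. Of the genes tested, 2 (Loxl4 and Adamts8) passed the filter through their cKO values alone, and without them 25 of 77 were higher and 10 lower. The counts fell with a heart left out: 13 higher and 8 lower without Ctrl replicate 1, 9 and 5 without Ctrl replicate 2, and 17 and 5 without Ctrl replicate 3. They were 15 and 8 without cKO replicate 1, 22 and 8 without cKO replicate 2, and 22 and 6 without cKO replicate 3. Calls over all genes also fell in these fits, from 2110 higher and 2205 lower to 1400 to 1993 higher and 1434 to 2006 lower. Of 18 other MMP genes 5 were tested, none was higher and 1 was lower. This was Mmp15, a membrane-type MMP, at 15.7 to 18.0 FPKM in Ctrl and 6.35 to 13.3 FPKM in cKO hearts (limma adjusted p 0.0436). Mmp9, the gelatinase B of inflammatory cells, was under the filter at 0.285 to 0.652 FPKM in Ctrl and 0.194 to 0.351 FPKM in cKO hearts.

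Of 14 ADAM and ADAMTS proteases tested out of 26, 4 were higher and 2 lower. Adam19 rose (log2 fold change 1.27, limma adjusted p 0.00697), as did Adam9 (0.62), the most abundant of the list, while Adamts7 and the aggrecanase Adamts5 fell (-0.82 and -0.67). All 6 cathepsins, proteases of the lysosome, were tested, with 3 higher and 0 lower. Ctsl, Ctsz and Ctsd rose (0.87, 0.66 and 0.44 on the log2 scale).

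Of 4 other protease inhibitors tested out of 6, 0 were higher and 1 was lower. Reck, a membrane-anchored MMP inhibitor, fell from 2.45 ± 0.205 to 1.47 ± 0.174 FPKM (SD, n = 3 each, log2 fold change -0.48, limma adjusted p 0.00777), and Cst3, the most abundant of the list, did not pass (log2 fold change -0.19). Activators and cofactors had 8 genes tested of 10, with 1 higher and 4 lower. The proprotein convertases Pcsk6 and Furin fell (-0.96 and -0.69), as did Fbln5, an elastic fibre scaffold (-0.41), and Pcolce2 (-0.29). Pcolce, an enhancer of procollagen processing, rose (0.40, limma adjusted p 0.0142), and Bsg, the most abundant, did not pass (0.034).

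Of 10 collagen maturation enzymes and chaperones tested out of 11, 6 were higher and 0 lower, with a median log2 fold change of 0.30. Serpinh1, the collagen chaperone, rose from 61.1 ± 3.17 to 182 ± 24.2 FPKM (SD, n = 3 each, log2 fold change 1.55, limma adjusted p 0.000443). Tgm2, a transglutaminase that cross-links matrix proteins, had a log2 fold change of 1.27, and the prolyl hydroxylase P4ha1 of 0.61. All 16 matrix substrates were tested, with 6 higher and 2 lower. Col3a1, Col1a1, Col4a2 and Col4a1, the last with the highest mean over all 6 hearts, rose (1.57, 0.82, 0.71 and 0.65), Lama2 and Nid1 of the basement membrane fell (-0.58 and -0.46), and Eln and Fn1 did not pass (limma adjusted p 0.648 and 0.797). Of AP-1 factors and cytokines known to induce such genes, 9 of 14 were tested, with 3 higher and 0 lower. Tgfb2 rose from 2.32 ± 0.661 to 10.5 ± 1.20 FPKM (SD, n = 3 each, log2 fold change 1.80, limma adjusted p 0.000928), and Fos and Jund rose by 0.94 and 0.36 on the log2 scale, while Jun did not pass (-0.39).

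**Figure D4:**
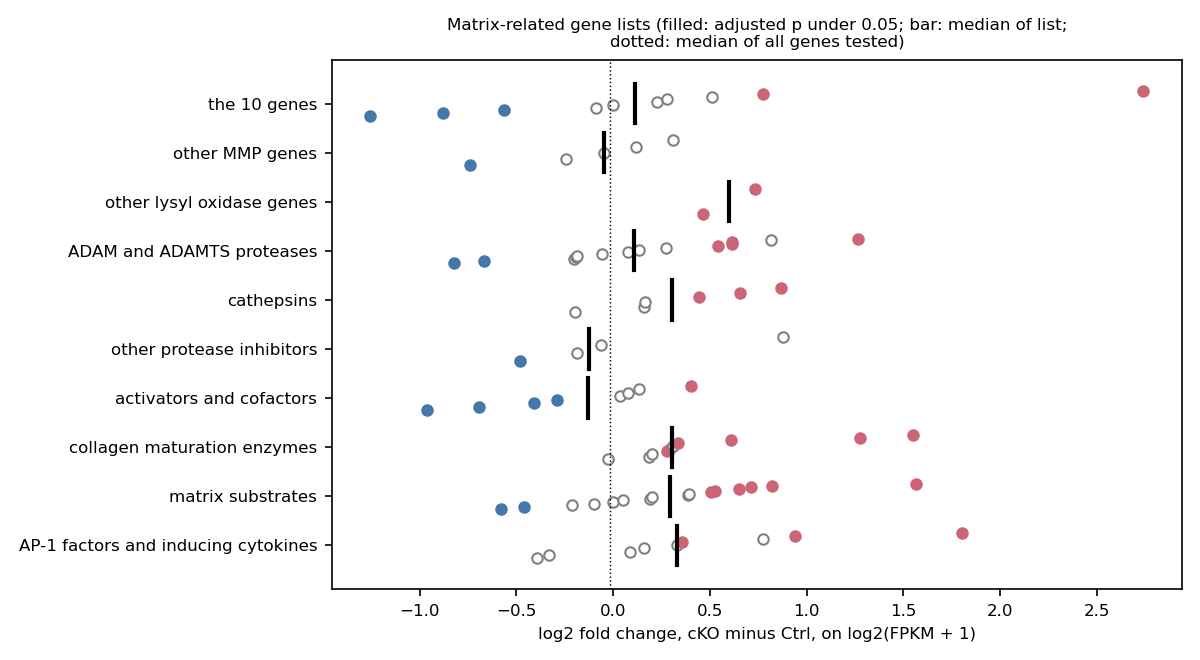
Log2 fold change of every tested gene of 9 matrix-related lists and of the 10 genes, cKO minus Ctrl, with filled points for adjusted p under 0.05 (red higher, blue lower), a bar at each list's median and a dotted line at the median of all genes tested, -0.02. Timp1 at 2.74 is the point furthest to the right.

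These libraries are of whole tissue, in which fewer cells of a type and less RNA per cell cannot be told apart. Marker lists of cells that could supply these mRNAs were therefore summed per heart. The 9 fibroblast markers (1 higher, Mfap4, and 1 lower, Dcn) summed to 716, 688 and 702 FPKM in Ctrl hearts and 559, 428 and 589 FPKM in cKO hearts. Among them Pdgfra, a receptor of cardiac fibroblasts, spanned 4.49 to 5.18 FPKM in Ctrl and 4.51 to 4.81 FPKM in cKO hearts. Every cKO heart lay below every Ctrl heart for 3 of the 9 (Dcn, Dpt and Gsn), beside 26.4% of all genes. Every cKO heart lay above for 1 (Mfap4), beside 24.8% of all genes. The median log2 fold change of the 9 was -0.23. Of 7 activated fibroblast markers 5 were tested and 4 were higher, among them Tnc, which passed the filter through its cKO values alone. Fap, under the filter and not tested, went the other way, at 0.540 to 0.654 FPKM in Ctrl and 0.188 to 0.330 FPKM in cKO hearts. The sums were 24.3 to 35.0 FPKM in Ctrl and 44.4 to 76.4 FPKM in cKO hearts. Most of them came from Acta2, with means of 18.7 of 28.3 FPKM in Ctrl and 36.0 of 57.8 FPKM in cKO hearts. Endothelial markers (4 of 7 lower) summed to 123 to 144 and 82.5 to 98.6 FPKM, and mural cell markers (7 listed, 6 tested, 4 lower and 1 higher) to 184 to 209 and 88.6 to 106 FPKM, in Ctrl and cKO hearts. Cardiomyocyte markers (5 of 8 lower) summed to 15044 to 19141 FPKM in Ctrl and 9082 to 16054 FPKM in cKO hearts, with overlap through cKO replicate 2. Actc1, a large part of this sum, read 6542 FPKM in that heart, against 3846 to 6014 FPKM in Ctrl hearts. Singly, 6 of the 8 markers had every cKO heart below every Ctrl heart, beside 26.4% of all genes.

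Macrophage markers (1 of 8 higher, 1 lower) summed to 306 to 419 FPKM in Ctrl and 244 to 361 FPKM in cKO hearts. No call was made among 3 neutrophil markers tested of 5, 4 mesothelial markers tested of 5 or 4 atrial markers. Neutrophil markers were uneven, at 6.72, 3.90 and 40.4 FPKM in Ctrl and 25.9, 3.47 and 8.43 FPKM in cKO hearts, and mesothelial markers summed to 2.13 to 7.37 and 1.74 to 5.43 FPKM. Cxcr2 of neutrophils, Cthrc1 of activated fibroblasts and Bmp10 of atria were listed at 0 in at least 1 heart.

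**Figure D5:**
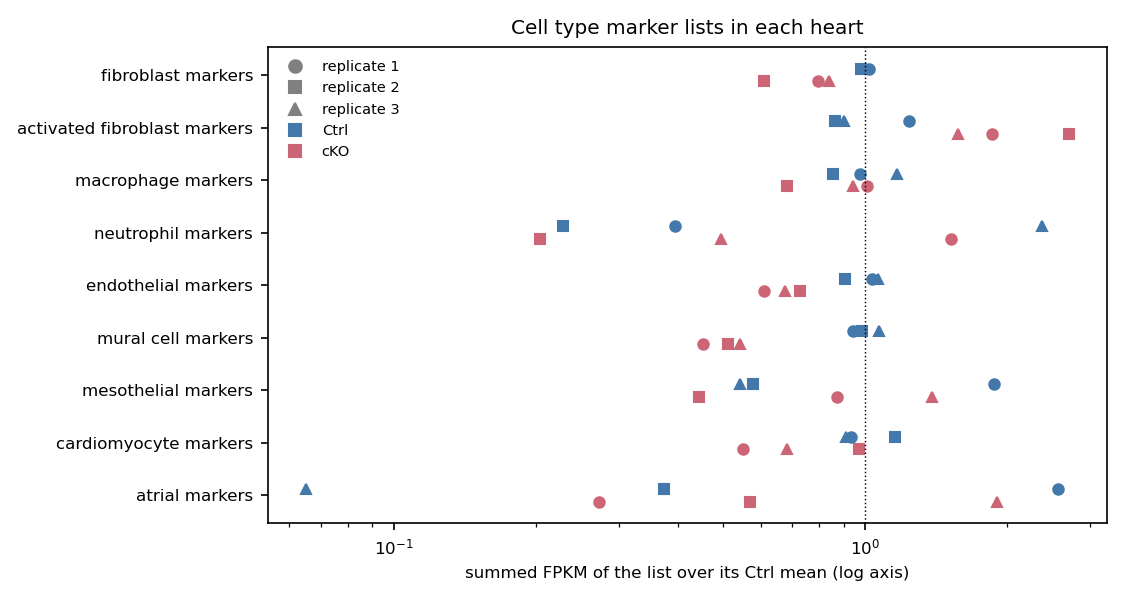
Summed FPKM of each cell type marker list in each heart, divided by the list's Ctrl mean (log axis), with Ctrl in blue, cKO in red and a symbol for each replicate number. Activated fibroblast markers lie above and fibroblast, endothelial and mural cell markers below all Ctrl values in every cKO heart, and the other lists overlap.

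Relative to the summed fibroblast markers, Timp1 stood at 1.41, 0.700 and 1.13 percent in Ctrl hearts and 16.6, 9.49 and 7.33 percent in cKO hearts. Timp2 stood at 5.35, 4.69 and 4.98 percent in Ctrl and 3.94, 4.82 and 4.80 percent in cKO hearts, so its groups overlapped on this scale. Timp3 and Timp4 stayed below Ctrl in every cKO heart, with ratios of means of 0.709 and 0.526, and Loxl1 and Lox lay above it, with ratios of 2.40 and 2.11. Timp4 per 1000 FPKM of cardiomyocyte markers was 1.12, 0.952 and 1.21 in Ctrl hearts and 0.982, 0.276 and 0.729 in cKO hearts, with overlap through cKO replicate 1. Gsn made up 54.8 to 66.8 percent of the fibroblast sum. Without it the cKO mean of the sum was 0.826 times that of Ctrl, and relative to it Timp2 lay below Ctrl in every cKO heart (ratio 0.812), Mmp14 lay above it (ratio 1.47), Lox overlapped (ratio 1.93), and Timp1, Timp3, Timp4 and Loxl1 stayed separate. The part of cell makeup in these results was not tested.

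Among 11420 other protein-coding genes, those whose values over the 6 hearts were most like Timp1 were Jazf1, Mtmr9 and Ddx54, with Pearson's r of 0.999, 0.999 and 0.998 on log2(FPKM + 1). For Timp4 they were Txndc15, Qars and Tef, with r of 0.998, 0.998 and 0.998. There were 720 genes with r above 0.95 to Timp1 and 476 to Timp4, and with 2 groups of 3 hearts all these values share the group difference.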

How the data were processed

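Poly-A RNA of 6 mouse hearts was sequenced as paired ends. The authors aligned reads with HISAT2 2.0.5, counted them per gene with featureCounts 1.5.0-p3 and deposited FPKM values with gene lengths, besides running DESeq2 1.16.1 per the labels. The notes name mm9, but the chromosome matched GENCODE M21 (GRCm38) for all 54409 shared identifiers and both ends for 53499, so GRCm38 coordinates are given. The strand setting of counting is not given in the sources used here.

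FPKM times length, divided by the step that 1 read makes in each heart, gave whole reads for 100% of values (tolerance 0.1 read), used for depth and for voom. The step implies the library size behind the FPKM. Hearts of a group differed beyond counting noise (chi-square per gene 44.9 and 47.3 for the pairs with cKO replicate 2 and 14.3 to 18.3 for the others). Groups came from sample titles. limma 3.58.1 in R 4.3.3, with an intensity trend and no covariates, was fitted to log2(FPKM + 1) for genes with mean FPKM of 0.5 or more. Two-sided p-values were adjusted by Benjamini-Hochberg across those genes and called under 0.05. This scale understates changes of low genes. Single values were compared by exact permutation, and p-values measure the spread between the labelled hearts, which may be partly technical. Alternatives were the pseudocount, filters, scalings, the variance trend, voom, a replicate block and leaving out each heart. Scaling to the assigned reads, the fibroblast sum without Gsn and the TIMP sum in reads were added after seeing the data.

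The fit was tested on simulated tables of 2 kinds. With dispersions smoothed along the mean, the first kind tried, false calls exceeded the nominal share in every run and the pass criteria were not met. With gene-wise dispersions, the second kind, the average false share was under the nominal one, but the original criterion for recovered genes was not met, and the criteria then used were set after both outcomes were seen. The fit itself was not changed. Adjusted p-values near the threshold may therefore be too small.

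Members and lists were chosen with earlier results of these data known. All members are named, with up to 3 called genes of largest change per list, its most abundant gene, and Col1a1, Col3a1, Eln and Fn1. Jun and Adamts8 are also named, outside this rule. Mmp9, Pcolce, Pcolce2, Lama2, Nid1, the synapsins and single markers were added after their values were seen. The motif letters were settled after matches in these windows had been seen, and other motifs that were looked at are not reported. The genes of 1 of the 10 lists, which count in the totals, are not reported here.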

Additional observations from a re-analysis of the deposited data

How the results depend on the processing

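Each of the 10 genes was refitted under 15 alternatives, 150 in all, of which 138 kept direction and side of the threshold, 4 lost the call and 8 turned the sign. The 4 lost calls are those of Timp2 given above, whose adjusted p by limma ran from 0.00795 to 0.0561. Mmp2 turned to 0.023 with median-of-ratios scaling and 0.081 without mtDNA-encoded genes in the total, and 0.14 scaled to the assigned reads, and spanned -0.13 to 0.14 when a heart was left out. Loxl2 turned to 0.0061 scaled to the assigned reads. Mmp3 spanned -0.059 to 0.60 when a heart was left out. Over these alternatives Timp1 spanned 2.37 to 2.95, Timp3 -0.97 to -0.73, Timp4 -1.42 to -0.98 and Loxl1 0.67 to 0.92.

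Leaving out a heart gave 1400 to 1993 higher and 1434 to 2006 lower calls over all genes, the fewest without Ctrl replicate 3 (1400 higher) and Ctrl replicate 2 (1434 lower), where fewer samples enter. In the matrix lists, whose alternatives were added after seeing the data, it gave 9 to 22 higher and 5 to 8 lower, and no filter on low values, with more genes tested, gave 5 lower. Scaling to the assigned reads gave 3270 higher and 1383 lower genes in all, and 33 and 6 in the matrix lists. voom on the recovered reads called 2169 genes higher and 2334 lower. In reads not divided by length, the Timp1 share of TIMP mRNA differed by 16.1 percentage points and the TIMP to MMP ratio by -1.72; the latter spanned -0.0163 to 0.393 when a heart was left out.

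With the replicate number as a block, 2 members were higher and 3 lower, and 1874 genes were higher and 1982 lower in all. Under this block the SE of Mmp3 went from 0.40 to 0.082 and its limma adjusted p from 0.628 to 0.0583, still without a call. Over all genes tested, deviations of same-numbered hearts correlated at -0.055, 0.17 and -0.015. The study's methods call the controls littermates, and with 3 hearts per group these values cannot decide whether same-numbered hearts were paired. Genes under the filter were not tested, and 3 hearts per group limit every comparison.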

Other observations

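Some matrix genes lay under the mean of 0.5 FPKM needed for testing. Those named here were picked after their values were seen and are given without a test. Adamts4, an aggrecanase, spanned 0.04998 to 0.180 FPKM in Ctrl hearts and 0.597 to 1.01 FPKM in cKO hearts. Adam12 spanned 0.0591 to 0.0704 FPKM in Ctrl and 0.235 to 0.292 FPKM in cKO hearts, and Adamts20 0.0374 to 0.0758 and 0.361 to 0.526 FPKM. These rest on few reads in Ctrl hearts, 5 to 21 for Adamts4. Mmp17, a membrane-anchored MMP, spanned 0.508 to 0.737 FPKM in Ctrl and 0.306 to 0.384 FPKM in cKO hearts.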
